A study of Mus musculus with 23 samples.

Results

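Tetraspanins are small proteins that cross the cell membrane several times and gather partner proteins, such as integrins, immunoglobulin-family receptors and proteases, into patches of the membrane. CD9, CD63 and CD81 are widely used as markers of exosomes, the vesicles that cells release from multivesicular endosomes, and CD63 itself sits mainly in late endosomes and lysosomes. Cd9 and Cd63 are known among the genes that rise when microglia, the resident macrophages of the brain, turn to the disease-associated state around amyloid plaques. The tetraspanins described here were the probe sets annotated to Cd9, Cd63, Cd37, Cd53, Cd81, Cd82, Cd151, Tspan3, Tspan4 and Tspan14. All 10 genes were found, each with 1 probe set, among 19505 genes with a symbol and 22203 probe sets in all.

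The study measured gene expression on microarrays in CD45+ CD11b+ microglia from cortex and hippocampus, in 23 samples. The aged APP group (4 samples) came from APPswlnd mice of 12 months, which carry human amyloid precursor protein with mutations of inherited Alzheimer disease, and the aged TAU group (4 samples) from P301S (PS19) mice, which carry a mutant human tau transgene. Titles of the aged TAU samples give 12 months, whereas their age and source fields give 9 months, which was used. Both aged transgenic groups are labelled as active microglia, sorted as Clec7a+, and are called gated APP and gated TAU here. Aged WT (4 samples) came from C57BL6 mice of 12 months. Young APP (3 samples), young TAU (4 samples) and young WT (4 samples) came from the same strains at 3 months. No Clec7a sort is named for the WT groups or for any young group, so that transgene, pathology and sort differ together between the aged groups, and TAU differs from WT in age as well. These influences cannot be told apart in the comparisons below. Clec7a has no probe set annotated to it, and the sort could not be checked on its own gene. The labels give neither the promoter that drives each transgene nor the sex of the mice, and they call the replicates biological without saying that each was a separate animal. The p-values therefore measure the spread between these samples.

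The values are log2 signals, so that a difference of 1 is a doubling of the signal, and a value has meaning only against the same probe set in other samples. Array medians lay between 6.87 and 7.13 and array SDs between 2.4 and 2.6. Aged WT replicates 2 and 4 had the highest array medians, 7.13 and 7.11, with SDs of 2.4 and 2.41, and the comparisons that use aged WT are also given without both. The mean of the Y-linked genes was 4.14 to 4.62 in young APP, against 6.98 to 7.46 in young WT. In the aged samples it was 4.16 to 7.13 in gated APP, 4.5 to 6.78 in gated TAU and 6.06 to 7.31 in aged WT. In young TAU it was 6.88, 4.49, 4.36 and 4 in replicates 1 to 4. Background was taken as the 95th percentile of 1429 chemosensory receptor probe sets in each group and lay between 7.73 and 8.14. All 10 tetraspanins lay above it in each of the 6 groups. A probe set is called where limma's p, adjusted by Benjamini-Hochberg across the whole array, was under 0.05.

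The 250 bases before the annotated start site are shown for the tetraspanins that were called against aged WT in both gated groups, because their signals moved in opposite directions. The sequences are from RefSeq (mouse build GRCm38.p6), 5′ to 3′ on the strand of the gene, and capitals mark matches to the GC box GGGCGG on either strand. Cd9 lies on the minus strand of chromosome 6 (chr6:125494761-125495010), Cd63 on the plus strand of chromosome 10 (chr10:128909095-128909344) and Tspan14 on the minus strand of chromosome 14 (chr14:40966897-40967146, the first listed of its 2 start sites).
Cd9: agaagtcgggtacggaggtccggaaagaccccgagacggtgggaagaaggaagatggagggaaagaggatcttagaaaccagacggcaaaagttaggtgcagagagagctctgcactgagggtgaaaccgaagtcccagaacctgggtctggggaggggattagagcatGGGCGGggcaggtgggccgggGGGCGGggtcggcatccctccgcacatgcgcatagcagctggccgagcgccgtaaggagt
Cd63: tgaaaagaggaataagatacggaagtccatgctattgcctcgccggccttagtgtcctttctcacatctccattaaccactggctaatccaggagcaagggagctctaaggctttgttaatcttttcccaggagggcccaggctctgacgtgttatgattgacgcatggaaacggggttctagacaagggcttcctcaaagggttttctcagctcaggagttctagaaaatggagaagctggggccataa
Tspan14: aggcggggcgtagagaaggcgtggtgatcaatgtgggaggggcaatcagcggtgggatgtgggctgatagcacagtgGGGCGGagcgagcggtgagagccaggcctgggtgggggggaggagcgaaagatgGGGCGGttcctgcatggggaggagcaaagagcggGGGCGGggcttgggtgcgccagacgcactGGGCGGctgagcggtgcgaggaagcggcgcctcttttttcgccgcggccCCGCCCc
The Cd9 window held 2 GC boxes, at positions -81 and -60 from the start site, and the Tspan14 window held 5, whereas the Cd63 window held none. The Cd63 window lies inside the annotated span of its gene (chr10:128896231-128912822). The bases before the first base of that span were not searched, so that a lack of GC boxes holds for this window only. The Tspan14 window also lies partly inside the annotated span of its gene (chr14:40906427-40967073), and its 5 GC boxes stand in that part. Of 32851 RefSeq promoter windows of the same length, 32.7% held at least 1 GC box. None of the 3 windows held the E-box CACGTG, the AP-1 site TGANTCA, the PU.1 site GAGGAAGT, the TATA box TATAAA or the CCAAT box CCAAT on either strand, which stood in 6.02%, 6.75%, 2.44%, 12.4% and 33.8% of all windows. These are matches of letters in a fixed window and say nothing of factors bound there.

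Among the tetraspanins of exosomes and endosomes, Cd63 had the largest change in both gated groups. Its signal was 18.88, 18.80, 18.81 and 18.97 in gated APP and 18.82, 18.40, 18.48 and 18.89 in gated TAU, against 16.29, 15.78, 16.75 and 16.31 in aged WT. Each gated sample lay above each aged WT sample, by at least 1.65 log2 units. The group means were 18.86 ± 0.08 in gated APP and 18.65 ± 0.24 in gated TAU, against 16.28 ± 0.40 in aged WT (SD, n = 4 each). Cd63 was thus 5.99-fold higher in gated APP (log2 fold change 2.58 ± 0.25 SE, limma adjusted p = 1.44e-07) and 5.15-fold higher in gated TAU (2.37 ± 0.25 SE, limma adjusted p = 8.07e-07). In these bulk samples a change in the share of cells that carry an RNA and a change in RNA per cell cannot be told apart.

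Cd9, which pairs with CD81 and integrins at the cell surface, also rose in both gated groups. It was at 18.13, 18.12, 18.32 and 18.16 in gated APP and at 18.48, 18.30, 18.40 and 18.22 in gated TAU, against 16.60, 16.45, 16.97 and 16.61 in aged WT. No gated sample overlapped with aged WT, and the gated samples were close to each other, with SDs of 0.09 in gated APP and 0.11 in gated TAU beside 0.22 in aged WT. The rise was 2.88-fold in gated APP (log2 fold change 1.52 ± 0.22 SE, limma adjusted p = 3.22e-05) and 3.23-fold in gated TAU (1.69 ± 0.22 SE, limma adjusted p = 1.14e-05).

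Tspan14 fell in both gated groups. Its protein belongs to the TspanC8 tetraspanins, which carry the sheddase ADAM10 out of the endoplasmic reticulum and steer which proteins it cuts. The Tspan14 signal was 12.56, 13.11, 12.89 and 12.65 in gated APP and 13.38, 12.89, 13.29 and 13.54 in gated TAU, against 14.21, 14.04, 14.53 and 13.58 in aged WT. Gated APP was well below aged WT, while the highest gated TAU sample, 13.54, came within 0.04 of the lowest aged WT sample. Tspan14 was 2.44-fold lower in gated APP (log2 fold change -1.29 ± 0.25 SE, limma adjusted p = 0.00143) and 1.76-fold lower in gated TAU (-0.82 ± 0.25 SE, limma adjusted p = 0.0477). The gated TAU call was narrow: it was lost in 10 of 17 alternatives, and the adjusted p was 0.0252 to 0.146 over the 17. Leaving out any of aged WT replicates 1, 2 or 3 or gated TAU replicates 1, 2 or 3 ended it (log2 fold changes -0.78, -0.83, -0.67, -0.85, -0.69 and -0.82 in that order).

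**Figure D1:**
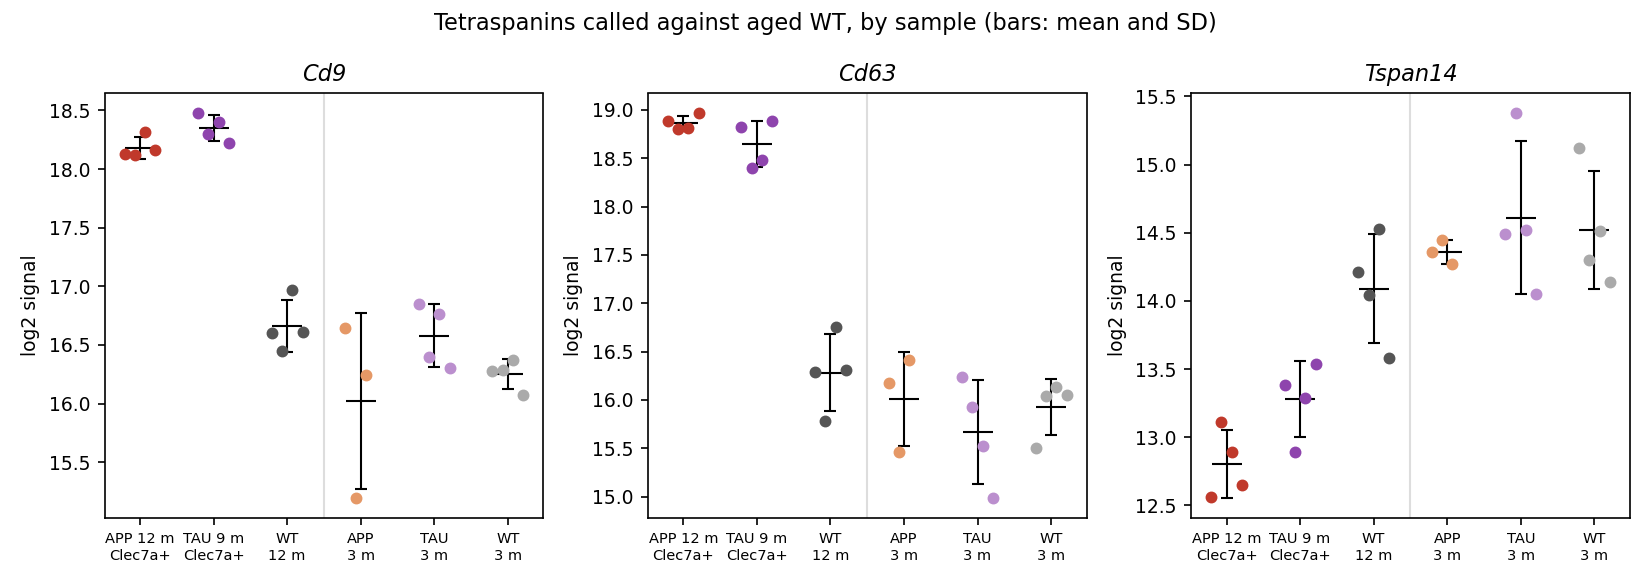
Log2 signal of Cd9, Cd63 and Tspan14 in each of the 23 samples (points), with the group mean and SD (bars), for gated APP, gated TAU, aged WT, young APP, young TAU and young WT. The 8 gated samples lie at 18.12 to 18.48 for Cd9 and at 18.4 to 18.97 for Cd63, above all other samples, and at 12.56 to 13.54 for Tspan14, below all others.

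The count for the members was therefore 3 of 10 called in gated APP against aged WT, 2 higher and 1 lower, where 9.08% of all probe sets were called (5.6% higher, 3.48% lower). It was likewise 3 of 10 in gated TAU against aged WT, 2 higher and 1 lower, where 8.76% were called (5.09% higher, 3.67% lower). In each comparison the samples of 3 of 10 members did not overlap, against 11.6% of all probe sets for gated APP and 11.9% for gated TAU. The median log2 fold change of the 10 was 0.12 in gated APP and -0.2 in gated TAU, near the medians of all probe sets, -0.06 and -0.05. The family did not move as a block: the changes lay with a few members. Both comparisons use the same 4 aged WT samples. All 6 calls held without aged WT replicates 2 and 4. Cd9 was then higher by 1.40 and 1.57 in gated APP and gated TAU (limma adjusted p = 0.00227 and 0.00109), Cd63 by 2.35 and 2.13 (2.25e-05 and 0.000114). Tspan14 changed by -1.57 and -1.10 (0.00199 and 0.0347). With the mean of the Y-linked genes entered as a covariate, Cd9 was higher by 1.57 in gated APP and 1.76 in gated TAU. Cd63 was higher by 2.66 and 2.47, and these were all called. Tspan14 kept its call in gated APP (-1.27, limma adjusted p = 0.00249) and lost it in gated TAU (-0.79, 0.0704).

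**Figure D2:**
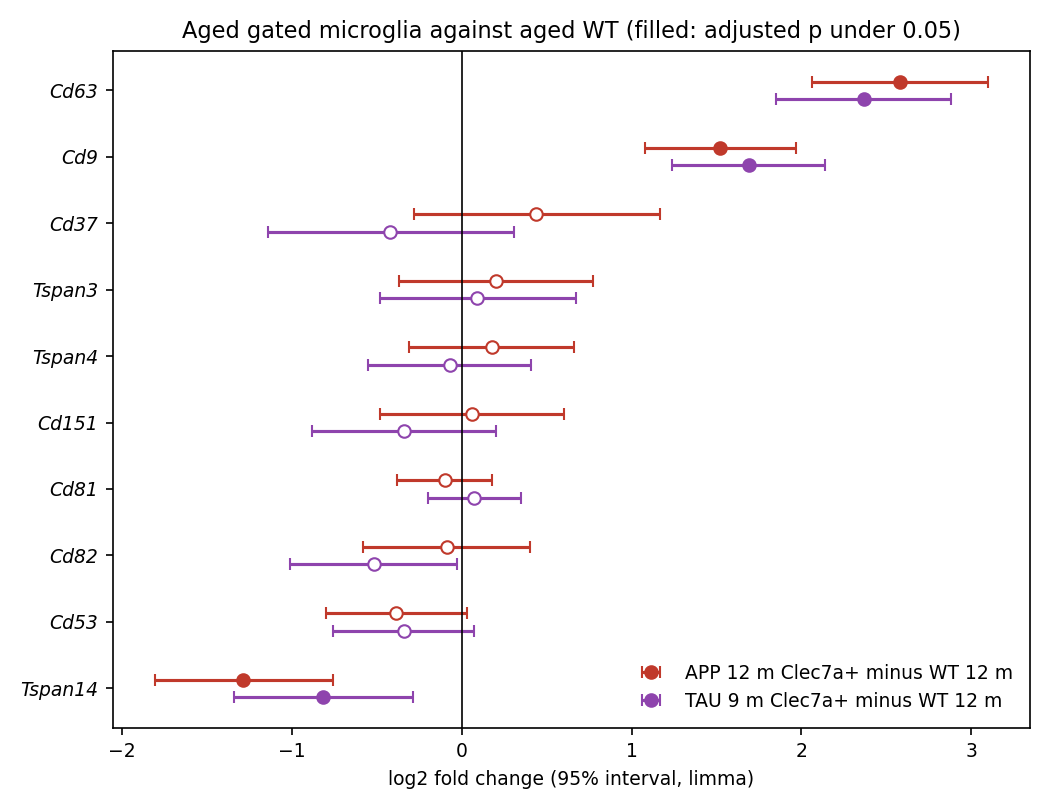
Log2 fold change of each tetraspanin in gated APP and in gated TAU against aged WT, with 95% intervals from limma; filled points had an adjusted p under 0.05. Cd63 and Cd9 lie to the right and Tspan14 to the left in both, while the intervals of the other 7 reach 0 or fail the adjustment.

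Cd81, the third of the common exosome markers and the partner of CD9, had the narrowest interval of the 10. Its signal was 17.80, 17.91, 17.90 and 17.89 in gated APP and 17.98, 17.99, 18.03 and 18.21 in gated TAU, against 18.03, 17.85, 18.04 and 17.99 in aged WT. The samples of each gated group overlapped with aged WT. The log2 fold change was -0.10 (95% interval -0.38 to 0.18) in gated APP and 0.07 (-0.20 to 0.35) in gated TAU, so that changes of the size seen for Cd9 and Cd63 lay far outside both intervals. Over all 6 groups the Cd81 means ran only between 17.88 in gated APP and 18.10 in young WT.

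Cd37 and Cd53 encode tetraspanins of leukocytes that restrain or organise receptor signalling and adhesion. Cd37 was at 15.76, 16.75, 16.57 and 16.04 in gated APP and 15.72, 15.33, 15.61 and 15.03 in gated TAU, against 15.93, 15.42, 16.80 and 15.20 in aged WT. Aged WT spanned most of the range of both gated groups, and neither difference was called (0.44, limma adjusted p = 0.497 in gated APP and -0.42, limma adjusted p = 0.532 in gated TAU). Cd53 was at 15.05, 15.36, 15.23 and 15.07 in gated APP and 15.28, 15.35, 15.57 and 14.68 in gated TAU, against 15.56, 15.56, 15.92 and 15.22 in aged WT. Here too the samples overlapped, and the differences of -0.39 (limma adjusted p = 0.268) and -0.34 (0.329) in gated APP and gated TAU were not called. After quantile normalization between arrays both Cd53 differences were called, at -0.61 (limma adjusted p = 0.0121) in gated APP and -0.54 (0.0307) in gated TAU.

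Cd82, which in other cells restrains migration, had means of 12.28 ± 0.17 in gated APP and 11.85 ± 0.35 in gated TAU, against 12.37 ± 0.34 in aged WT (SD, n = 4 each). The gated TAU difference of -0.52 had an unadjusted p of 0.0376 and was not called (limma adjusted p = 0.192). The remaining members were Cd151, whose protein binds laminin-binding integrins, Tspan3, and Tspan4, whose protein marks the retraction fibres and vesicles of migrating cells. Their samples overlapped with aged WT in both comparisons, and their log2 fold changes lay between -0.34 (Cd151 in gated TAU) and 0.20 (Tspan3 in gated APP). All had 95% intervals that crossed 0, for Tspan3 -0.37 to 0.77 in gated APP and -0.48 to 0.67 in gated TAU. Changes within these bounds were not excluded with 4 samples a group.

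**Figure D3:**
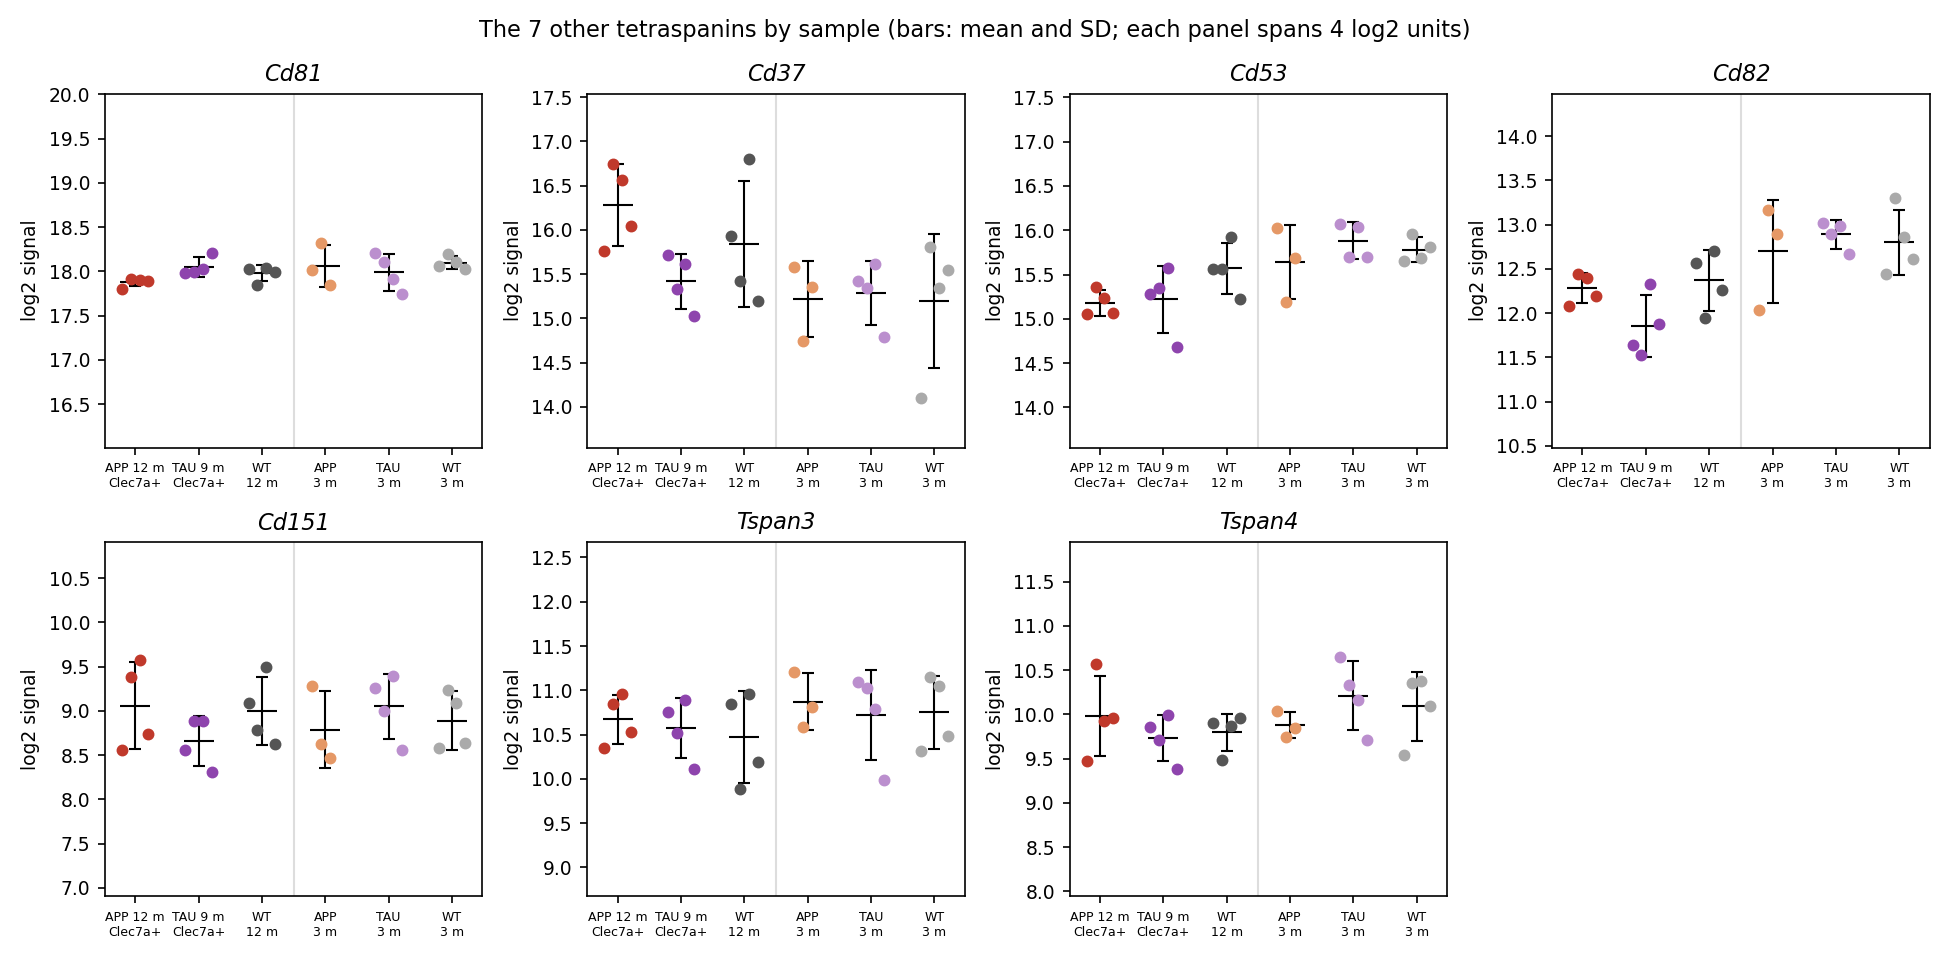
Log2 signal of Cd81, Cd37, Cd53, Cd82, Cd151, Tspan3 and Tspan4 in each of the 23 samples (points), with group mean and SD (bars), for the same 6 groups; each panel spans 4 log2 units. Cd81 is nearly level, at means of 17.88 to 18.10, while the samples of gated and aged WT groups overlap for each of the 7.

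Gated APP and gated TAU were then set against each other, both sorted as Clec7a+ but of different ages. No tetraspanin was called by limma (0 of 10, where 0.928% of all probe sets were called), and 1 of 10, Cd37, had an unadjusted p under 0.05. Cd37 was higher in every gated APP sample, 15.76 to 16.75, than in any gated TAU sample, 15.03 to 15.72, and the difference of 0.86 ± 0.35 (SE) had an unadjusted p of 0.0224 and a limma adjusted p of 0.396. The samples also did not overlap for Cd81, where gated APP lay below gated TAU by 0.18 on the log2 scale (-0.18, limma adjusted p = 0.789). That made 2 of 10 members without overlap, against 4.7% of all probe sets. For Cd9 the difference was -0.17 (95% interval -0.62 to 0.28) and for Cd63 0.22 (-0.30 to 0.74), which leaves room for differences of either sign up to those bounds. For Tspan14 it was -0.47 (-1 to 0.05).

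No tetraspanin was called in the young transgenic groups, which the labels describe as pre-pathology, against young WT. Apart from young TAU replicate 1, the Y-linked means of the young transgenic samples lay well below those of young WT. Transgene and this difference cannot be fully told apart. In young APP against young WT 0 of 10 members were called by limma (0% of all probe sets), 0 of 10 had an unadjusted p under 0.05 and 0 of 10 were without overlap (4.9% of all probe sets). Over all probe sets, 648 had an unadjusted p under 0.05. In young TAU against young WT the counts were the same, 0 of 10 called by limma (0%), 0 of 10 with an unadjusted p under 0.05 (922 probe sets in all) and 0 of 10 without overlap (2.94%). Cd63 was at 16.17, 15.46 and 16.41 in young APP and at 16.24, 15.93, 15.52 and 14.98 in young TAU, against 15.50, 16.04, 16.13 and 16.05 in young WT. The lowest young WT value, 15.50, stood apart from the other 3. Cd9 was at 16.64, 15.19 and 16.24 in young APP and at 16.85, 16.40, 16.76 and 16.30 in young TAU, against 16.28, 16.29, 16.37 and 16.07 in young WT. Young APP replicate 2 was the lowest of all 23 samples for Cd9, and young APP had the widest spread of Cd9 of the 6 groups (SD 0.75, n = 3).

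Age alone, in WT at 12 against 3 months with no sort named for either, also changed no tetraspanin past the threshold (0 of 10 called by limma, 0 of 10 with an unadjusted p under 0.05; 8 probe sets, 0.036%, called in all). The difference nearest to it was Cd9, whose 4 aged WT samples, 16.45 to 16.97, all lay above the 4 young WT samples, 16.07 to 16.37. Its difference was 0.40 ± 0.22 (SE, limma adjusted p = 0.585), and 1 of 10 members was without overlap, where 4.17% of all probe sets were. Cd63 differed by 0.35 ± 0.25 (SE, limma adjusted p = 0.672) and Tspan14 by -0.43 ± 0.25 (0.619).

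Gated aged samples were next compared with young samples of the same strain. The Y-linked means were 4.16 to 7.13 in gated APP and 4.14 to 4.62 in young APP. In gated APP against young APP 3 of 10 were called, 2 higher and 1 lower (12.1% of all probe sets called, 6.19% higher and 5.95% lower), with log2 fold changes of 2.85 for Cd63 (limma adjusted p = 1.18e-07), 2.16 for Cd9 (7.96e-07) and -1.56 for Tspan14 (0.000361). Cd37 was higher in every gated APP sample, 15.76 to 16.75, than in the young APP samples, 14.74 to 15.58, but the difference of 1.06 was not called (limma adjusted p = 0.0735). With it, 4 of 10 members were without overlap, against 20% of all probe sets. The Cd9 difference in gated APP against young APP ran from 1.74 to 2.47 with 1 sample left out at a time. In gated TAU against young TAU 5 of 10 were called, 2 higher and 3 lower (13.5% of all probe sets called, 6.67% higher and 6.81% lower). The largest of these were Cd63 (2.98, limma adjusted p = 1.62e-08), Cd9 (1.77, 4.57e-06) and Tspan14 (-1.34, 0.000804). The same 5 were without overlap, against 17.2% of all probe sets.

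The others were Cd82 and Cd53, and whether their changes with age differ between TAU and APP was not tested. Cd82 was at 11.64, 11.53, 12.33 and 11.88 in gated TAU, against 13.02, 12.90, 12.99 and 12.67 in young TAU, without overlap. It was 2.07-fold lower in gated TAU (log2 fold change -1.05 ± 0.24 SE, limma adjusted p = 0.00354). Cd53 was at 15.28, 15.35, 15.57 and 14.68 in gated TAU, against 16.07, 15.70, 16.04 and 15.70 in young TAU. The gap between the groups was small, 15.57 below 15.70, and the difference of -0.66 ± 0.20 (SE, limma adjusted p = 0.0296) lost its call without young TAU replicate 1 (-0.59) or 3 (-0.60) and without gated TAU replicate 1 (-0.68) or 4 (-0.48).

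Whether the change with age exceeded that of WT was tested as an interaction. For Cd63 the excess was 2.5 ± 0.37 (SE) in APP (limma adjusted p = 0.000148) and 2.63 ± 0.35 in TAU (6.1e-05). For Cd9 it was 1.75 ± 0.32 in APP (limma adjusted p = 0.00148) and 1.37 ± 0.31 in TAU (0.0117). These were the 2 of 10 members called in each strain, both higher, where 3.8% of all probe sets were called in APP (2.82% higher) and 3.75% in TAU (2.6% higher). For Tspan14 the excess of -1.13 in APP (limma adjusted p = 0.109) and -0.91 in TAU (0.184) was not called, nor was that of Cd82 in TAU (-0.61, 0.357) or of Cd53 in TAU (-0.44, 0.439). The change with age spans 3 to 9 months in TAU and 3 to 12 months in WT and APP. The sort is named only for the aged transgenic samples, and its share in these interactions cannot be told apart from that of age, strain or pathology. Without aged WT replicates 2 and 4 the Cd9 interaction in TAU was 1.24 and lost its call (limma adjusted p = 0.0728). With 1 sample left out at a time, the Cd9 excess ran from 1.34 to 2.06 in APP and from 1.27 to 1.47 in TAU. Whether the excess differed between APP and TAU was not tested.

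Over the 6 groups the mean Cd9 signal was 18.35 ± 0.11 in gated TAU, 18.18 ± 0.09 in gated APP, 16.66 ± 0.22 in aged WT, 16.58 ± 0.27 in young TAU, 16.25 ± 0.13 in young WT and 16.02 ± 0.75 in young APP (SD). There was 1 step in this order, between gated APP and aged WT. The samples of all other neighbours in the order overlapped. Cd63 was at 18.86 ± 0.08 in gated APP, 18.65 ± 0.24 in gated TAU, 16.28 ± 0.40 in aged WT, 16.01 ± 0.49 in young APP, 15.93 ± 0.29 in young WT and 15.67 ± 0.54 in young TAU. Again the only neighbours without overlap were gated TAU and aged WT. Set as a block, the 8 gated samples lay above the other 15 samples by at least 1.15 for Cd9 and by at least 1.65 for Cd63. Of all probe sets 615 (2.77%) separated the 8 gated samples upwards and 319 (1.44%) downwards, Tspan14 among the second with a gap of only 0.04.

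The 5 probe sets most like Cd9 over the 23 samples, by Pearson's r as a description, were those of the proteasome activator subunit Psme1 (0.976), the ubiquitin-like Ubl5 (0.972), the ribosomal protein gene Rpl27 (0.971), the chemokine Ccl6 (0.969) and the tubulin cofactor Tbca (0.968). Once group means were removed, their r with Cd9 was 0.72, 0.83, 0.84, 0.58 and 0.79. Young APP, with its low replicate 2, had a Cd9 SD of 0.75, against 0.09 to 0.27 in the other groups. Every within-group r of Cd9 given here therefore rests largely on the young APP samples. The probe sets most like Cd63 were lysozyme Lyz2 (0.972), the cysteine protease inhibitor Cst7 (0.966), the phosphatidylserine-sensing receptor kinase Axl (0.965), the chemokine Cxcl16 (0.964) and the ATP synthase inhibitor Atpif1 (0.964). With group means removed these fell to 0.41, 0.10, 0.39, 0.52 and 0.73, so that likeness to Cd63 lay more between the groups than within them. Cd9 and Cd63 followed each other with an r of 0.94, or 0.60 within groups. The samples share 6 group means and arrays of unequal spread, and no test goes with these values. The deviations of a sample from its group mean followed the array's SD with an r of 0.84 for Tspan3, 0.82 for Cd37 and 0.73 for Cd151 (n = 23). This r was 0.65 for Cd82, 0.64 for Tspan4, 0.58 for Cd53 and 0.50 for Cd63. For Tspan14, Cd81 and Cd9 it was 0.43, 0.41 and 0.27.

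Of 21 other tetraspanins 20 were measured. In gated APP against aged WT 2 were called higher and 3 lower (median -0.05, beside -0.06 over all probe sets), where 9.08% of all probe sets were called. In gated TAU 3 were called higher and 3 lower (-0.18, beside -0.05), where 8.76% of all probe sets were called. Upk1b, known as a uroplakin of the bladder lining, had the largest of these changes, 11.26 ± 0.47 in gated APP and 14.35 ± 0.46 in aged WT (SD, n = 4 each; -3.09, limma adjusted p = 6.59e-07), and it fell in gated TAU as well (-2.87, 2.83e-06). Tspan13 fell in gated APP (-0.83, limma adjusted p = 0.0166) and in gated TAU (-0.99, 0.00528). Tspan5, Tspan15, Tspan17 and Tspan33 belong with Tspan14 to the TspanC8 tetraspanins. Tspan17 was at 8.72 ± 0.46 in gated APP and at background in aged WT, at least 1.5-fold higher (limma adjusted p = 3.36e-07), and at background in gated TAU and aged WT both. It was the 1 other tetraspanin called between the gated groups, at least 1.82-fold higher in gated APP than in gated TAU (limma adjusted p = 0.00165). Tspan5 rose in gated APP (0.72, limma adjusted p = 0.0261) and gated TAU (0.81, 0.0134), and Tspan33 was at least 1.17-fold higher in gated TAU (0.00418) with aged WT at background. Tspan15 (called lower in gated APP) and Tspan8 (called lower in gated TAU) were at background in the groups compared, so that no fold is given. Adam10 itself was lower in gated APP (-0.75, limma adjusted p = 0.023), while its -0.46 in gated TAU was not called (0.19).

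Of 22 genes of tetraspanin partners 21 were measured. In gated APP 5 were called higher and 2 lower than in aged WT (median 0.08), where 9.08% of all probe sets were called. In gated TAU 6 were called higher and 1 lower (median 0.21), where 8.76% of all probe sets were called. Ifitm3, an interferon-induced membrane protein that blocks virus entry, was higher by 5.28 in gated APP (limma adjusted p = 2.17e-11) and by 4.66 in gated TAU (3.02e-10). Itga5, the fibronectin receptor chain, was at background in aged WT and at least 4.49-fold higher in gated APP and 1.54-fold higher in gated TAU (limma adjusted p = 4.64e-07 and 0.000496). Cd44, a hyaluronan receptor, was called higher in both with aged WT at background, and no fold is given. The direct CD9 and CD81 partners Igsf8 and Ptgfrn rose in gated APP (0.75 and 0.69, limma adjusted p = 0.0369 and 0.0496), while their 0.69 and 0.47 in gated TAU were not called (0.0595 and 0.209). Itgam, the CD11b chain used in the sort, fell in gated APP (-0.81, limma adjusted p = 0.0363) and gated TAU (-1.16, 0.00314), and its partner chain Itgb2 rose in gated TAU (0.95, 0.0196) and was not called in gated APP (0.76, 0.0656). Itgb1 was called in neither.

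All 21 genes of exosome formation and multivesicular endosomes were measured. In gated APP 3 were called higher and 1 lower (median 0.13), where 9.08% of all probe sets were called. In gated TAU 1 was called higher and 1 lower (median 0.09), where 8.76% of all probe sets were called. Lamp1, a lysosome membrane protein, rose in gated APP (1.01, limma adjusted p = 0.00035) and in gated TAU (0.78, 0.00595). Lamp2, of the same membrane, rose in gated APP (0.81, limma adjusted p = 0.000476) and the 0.37 in gated TAU was not called (0.124), and the ESCRT subunit Chmp4b rose in gated APP (1.39, 0.00167) with 0.69 in gated TAU uncalled (0.142). The sorting adaptor Stam fell in both, by 0.53 in gated APP and 0.49 in gated TAU on the log2 scale (-0.53 and -0.49, limma adjusted p = 0.03 and 0.0454). The syntenin gene Sdcbp, Pdcd6ip (ALIX), Tsg101 and Rab27a, which build or release exosomes, were called in neither. None of these 3 lists had a call by limma in young APP or young TAU against young WT or in WT with age. At an unadjusted p under 0.05 there were 0 genes in young APP, 1 in young TAU and 4 in WT with age, 3 of them other tetraspanins.

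**Figure D4:**
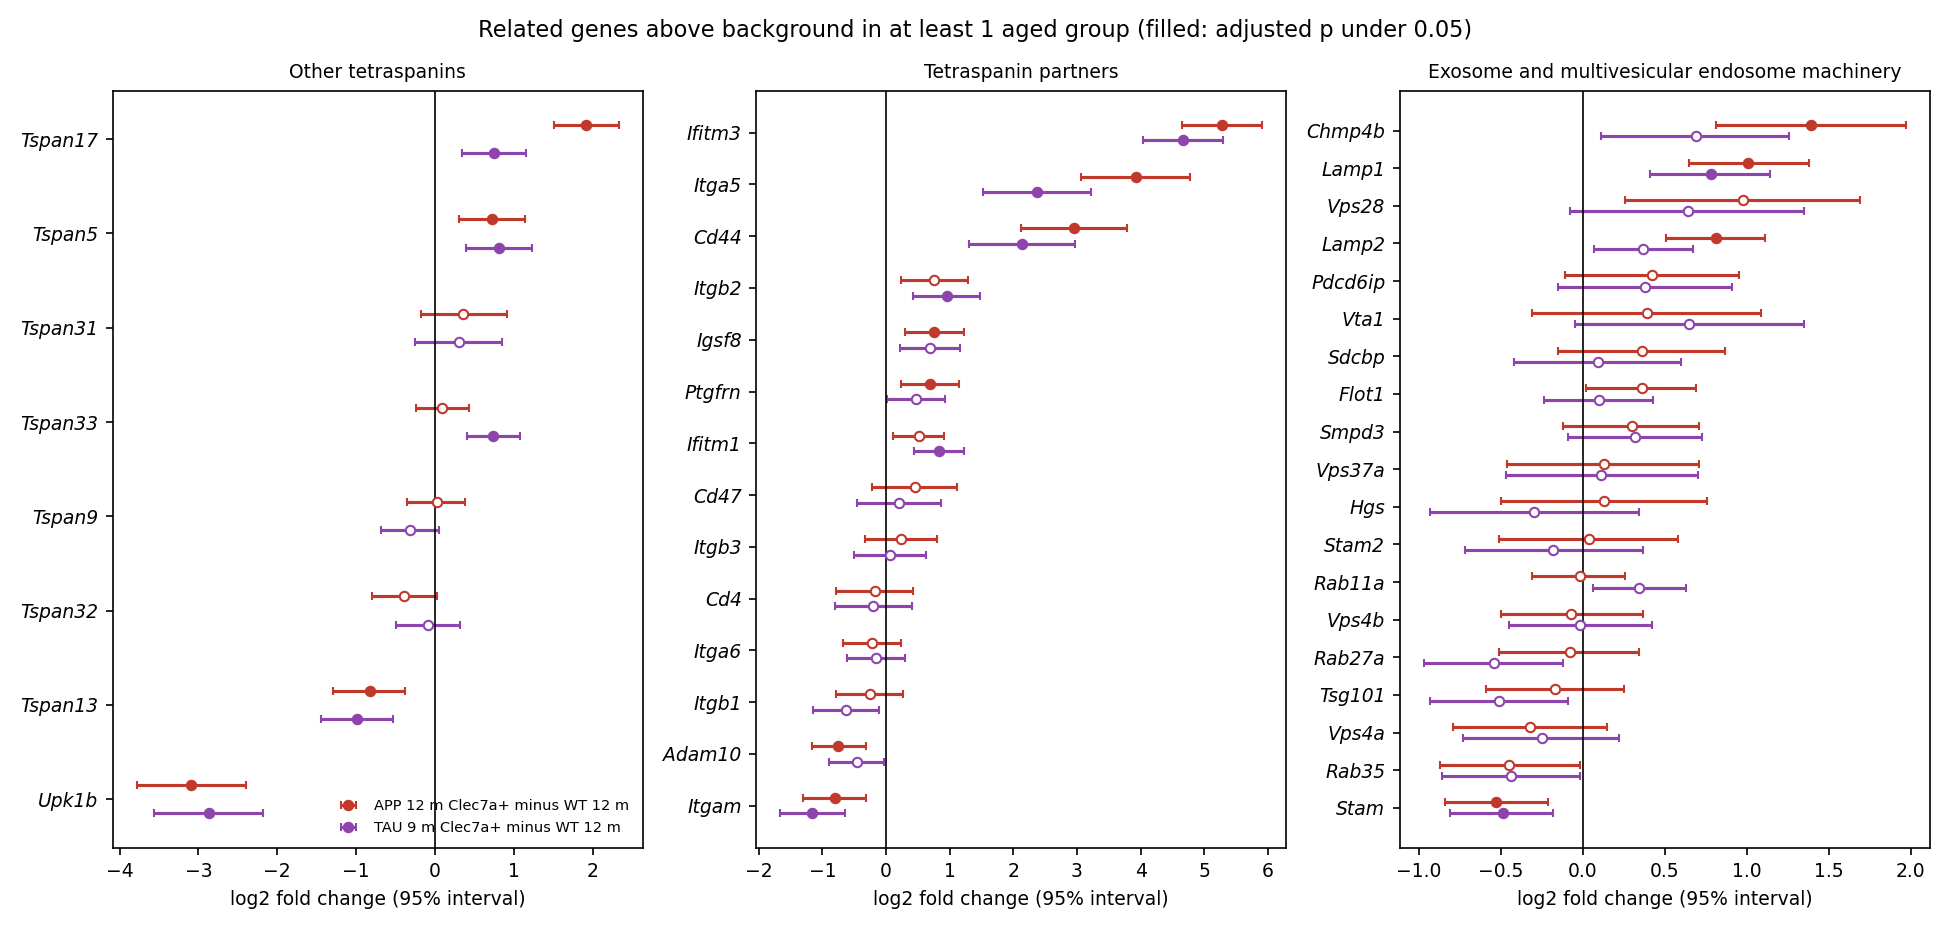
Log2 fold change with 95% intervals in gated APP and in gated TAU against aged WT for other tetraspanins (8 of 20 measured), tetraspanin partners (14 of 21) and exosome and multivesicular endosome genes (19 of 21), showing genes above background in at least 1 aged group; filled points had an adjusted p under 0.05. Ifitm3 and Itga5 lie far right and Upk1b far left in both.

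Markers of other cells that carry tetraspanins were read in the same samples. Against aged WT, 9.08% of all probe sets were called in gated APP and 8.76% in gated TAU. Microglia markers were above background throughout, and 7 of 11 fell in gated APP and 8 of 11 in gated TAU, with sample means of 14.35 to 14.72 in gated APP and 14.49 to 14.78 in gated TAU, against 15.46 to 15.88 in aged WT. P2ry12, the purinergic receptor of resting microglia, was at 17.03 in gated APP and 16.88 in gated TAU, against 18.3 in aged WT. Of 5 platelet and megakaryocyte markers, a lineage rich in CD9 and CD63, 3 were at background in each aged group and 0 were called (0 and 1 with an unadjusted p under 0.05 in gated APP and gated TAU), with sample means of 7.01 to 7.48, 7.19 to 7.44 and 7.09 to 7.6 in gated APP, gated TAU and aged WT. All 5 monocyte markers and all 5 B cell markers were at background in the aged groups, although Fn1 of the monocyte list and Cd22 of the B cell list were called higher in both gated groups within that range. Of 8 T and NK cell markers 6, 6 and 7 were at background, and Klrb1c was at least 2.85-fold higher in gated TAU than in aged WT. Of 7 neuron markers 4 were at background in each aged group and 0 were called by limma (1 with an unadjusted p under 0.05 in gated APP and 1 in gated TAU). Of 6 oligodendrocyte markers 5 were at background and 0 were called (0 with an unadjusted p under 0.05). Of 8 border macrophage markers 4, 3 and 3 were at background in gated APP, gated TAU and aged WT, with sample means of 8.07 to 8.3, 8.85 to 9.71 and 8.7 to 8.99. In gated APP 0 of these 8 were called higher and 2 lower (median -0.34), and in gated TAU 1 higher and 1 lower (median 0.15). At an unadjusted p under 0.05 there were 4 and 2. Ms4a7 of that list rose in gated TAU (3.56, limma adjusted p = 1.82e-05) and Stab1 fell in gated APP (-3.16) and gated TAU (-1.21). Of 8 endothelial and pericyte markers 6, 7 and 8 were at background, with sample means of 6.3 to 7.67, 6.27 to 6.38 and 6.29 to 6.87, and in gated APP 1 was called higher and 1 lower than in aged WT: Flt1 was at least 2.41-fold higher, and Pecam1 was lower with both groups at background. Of 7 astrocyte markers 1, Gfap, was called higher in gated APP, with aged WT at background and no fold given. The median of the 7 was -0.3, and Slc1a2 and Aldoc had uncalled differences of -1.12 and -0.89. Their sample means were 6.89 to 7.79, 6.66 to 7.57 and 7.25 to 7.77. The 5 neutrophil markers had sample means of 5.41 to 5.77, 5.58 to 5.72 and 6.19 to 8.28. Of these 1 was called lower in each gated group, with medians of -1.67 in gated APP and -1.95 in gated TAU. At an unadjusted p under 0.05 there were 4 and 3. Of 6 dendritic cell markers 5 were at background in each aged group. There 1 was called lower in gated APP and 0 in gated TAU (2 and 1 with an unadjusted p under 0.05). The part of these markers in the changes of Cd9, Cd63 and Tspan14 was not tested.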

How the data were processed

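Gene expression was measured in 23 mouse microglia samples on microarrays. The authors deposited 1 log2 signal per probe set and sample. Per the submitters' processing notes, RMA and the Transcriptome Analysis Console were used. RMA combines a background correction, a normalization across arrays and a summary of each set's probes, and can compress fold changes. Versions, parameters and genome build are not given in the sources used here. A symbol came from the platform annotation for 19572 probe sets, and none carried several symbols. No filter or normalization was added.

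All samples entered 1 linear model with a mean per group (limma 3.58.1, R 4.3.3, eBayes, 17 residual and 5.11 prior degrees of freedom). Contrasts were two-sided, with Benjamini-Hochberg adjustment over all 22203 probe sets and a threshold of 0.05. Samples were grouped from the labels. Precision is limited by the number of arrays, with a median SE of 0.226 for a log2 fold change of gated APP against aged WT. Background was set at the 95th percentile of chemosensory receptor probe sets in a group. A fold against it is a lower bound computed against that percentile.

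Every member is named. From the other lists up to 4 genes per direction with the largest change in gated APP were named, and for Cd9 and Cd63 the 5 probe sets with the highest Pearson r. Igsf8, Ptgfrn, Itgb1, the uncalled exosome genes and the single marker genes were added after their values were seen. The members, lists and tests were chosen with earlier results of these data known. The alternatives were other normalizations, array weights, a robust trended fit, a filter on dim probe sets, a replicate block, a Y-linked covariate, fits on the compared groups alone, and leaving out samples. The fit was tested on simulated data with known shifts and independent noise. Deviations shared by the probe sets of an array were not simulated, so that their effect was not tested there.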

Additional observations from a re-analysis of the deposited data

Results flagged for a closer look

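Cd63 in young WT replicate 1 was at 15.5, the lowest of the 4 young WT samples, whose other values were 16.04, 16.13 and 16.05. Its gap to the nearest of them took 0.857 of the range of the group, which was past the limit for 4 samples. Of 50 groups of 4 samples examined this was the only such value, and chance gives about 1 in 20.

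The changes with age differed between strains for Cd9 and Cd63 by the interaction test. For Cd9 the change with age in APP exceeded that in WT by 1.75, and the change in TAU exceeded it by 1.37. For Cd63 the excess was 2.5 in APP and 2.63 in TAU. Whether either excess differed between APP and TAU was not tested. Only the aged transgenic samples are labelled as sorted on Clec7a, so that strain and sort cannot be told apart here. The aged TAU samples were also of 9 months, against 12 in aged WT.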

How the results depend on the processing

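Over the alternatives, 1780 values of the members were recomputed. Of these 1755 kept their side of the threshold, 17 lost a call and 8 gained one. The sign turned in 91 values, which were uncalled in both fits, and in 0 called values. Cd9 and Cd63 stayed called against aged WT in each of 17 alternatives, with log2 fold changes of 1.24 to 1.63 (Cd9) and 2.35 to 2.74 (Cd63) in gated APP and 1.38 to 1.8 and 2.12 to 2.52 in gated TAU. Tspan14 in gated TAU against aged WT lost its call with arrays centred (-0.76, adjusted p = 0.102), array weights (-0.77, 0.061), the Y-linked covariate (-0.79, 0.0704) and only the compared samples (-0.82, 0.0767). The labels do not say that a replicate number marks a shared animal or batch. Deviations of same-numbered samples had a mean r of 0.11 (55 pairs, -0.52 to 0.55), against -0.04 for other numbers (165 pairs), and 13 of 23 samples correlated best with their own number, a hint from the data and not the design. The numbers were not treated as pairs in the reported fit, since the labels name no pairing. Whether same-numbered samples shared a batch was not tested. A replicate block changed 1 member call, Cd37 in gated APP against young APP (1.15, adjusted p = 0.0361), which array weights (1.01, 0.0163) and the filter on dim probe sets (1.06, 0.0401) also called. Cd53 in gated TAU against young TAU lost its call with arrays centred (-0.63, 0.065) and only the compared samples (-0.66, 0.0681). Quantile normalization raised the members called in gated APP against young APP to 5, adding Cd53 (-0.7, 0.00651) and Cd81 (-0.45, 0.0401), and leaving out aged WT replicates 2 and 4 lowered those of the TAU interaction to 1. Tspan14 gained a call in the APP interaction without young WT replicate 1 (-1.33, 0.0433).

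Counts over all probe sets moved more, and the cause was not tested. Gated APP against aged WT had 2015 calls, 1326 with only the compared samples and 1264 without aged WT replicates 2 and 4, and gated TAU had 1946, 1218 and 1227. Gated APP against gated TAU had 206 calls, 126 without dim probe sets and 120 with only the compared samples. Young APP against young WT had 0, 8 with array weights and 93 with only the compared samples. WT with age had 8 calls, 3 centred, 4 quantile normalized, 13 weighted, 3 without dim probe sets, 5 with only the compared samples, 1 without aged WT replicates 2 and 4, and 0 to 88 leaving out 1 sample. Array weights gave 4079 calls against 2695 in gated APP against young APP (1643 to 2735 leaving out 1 sample, lowest without young APP replicate 2), 1575 against 844 in the APP interaction and 1460 against 832 in the TAU interaction. The Y-linked covariate gave 447 in the APP interaction and 502 in the TAU interaction, which had 464 without aged WT replicates 2 and 4 and 541 to 1356 leaving out 1 sample. Young TAU against young WT had 0 to 1.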
